A study of Homo sapiens with 30 samples.

Results

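TET2 occupancy was compared between 2 pooled chromatin immunoprecipitation sequencing (ChIP-seq) peak lists of HEK293T cells, one without and one with the auxin indole-3-acetic acid (IAA). The regions were chosen by list alone: rows of a list that had at least 1 bp in common were joined into 1 region, and a region was called kept when it had at least 1 bp in common with the other list. This gave 1326 regions without IAA and 3022 with IAA, 4348 of the 70565 regions that the 8 lists of the series hold for CTCF, MBD3, TET1 and TET2. Each TET2 list pools 3 samples, 6 of the 30 samples of the series. HEK293T is an established human embryonic kidney line. In both conditions the cells had been edited at CTCF for auxin-inducible degradation and carried the plasmids pcDNA3.1-ScFv-miniIAA7-mEGFP and pcDNA3.1-AtAFB2-mCherry, which supply the degradation system. Cells with IAA then spent 72 h in 0.5 mM IAA. Cells without IAA had medium lacking it according to the treatment protocol, while their treatment label reads DMSO_72h. The sources used here do not say whether the edited cells are 1 clone. The CTCF list, which reads out the protein that IAA degrades, held 42925 regions without IAA and 63 with it.

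TET2 is a dioxygenase that oxidises 5-methylcytosine to 5-hydroxymethylcytosine and further products, a step on the way to removing methylation from DNA. Unlike TET1 it has no CXXC domain of its own for binding CpG-rich DNA, and it is brought to chromatin largely through partner proteins. CTCF is a zinc-finger protein that binds a long DNA motif, anchors chromatin loops, and binds many of its sites less well when they are methylated. The comparison asks where TET2 is found once CTCF has been depleted.

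Since the 3 samples of a condition were pooled before peaks were called, the lists hold no value per sample, and the difference between conditions has no replicate test. Neither list comes with a read depth or a stated control. Deeper sequencing lets a caller find more weak peaks, so a longer list is not by itself a measure of more binding. Intervals below are 95% intervals, Wilson's for shares, Newcombe's for differences between shares, and order statistics for medians. They cover counting error over regions and not the spread between cultures, and regions that lie side by side are not independent, which makes them too narrow.

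TET2 regions with IAA were 2.28 times as many as without it, and they lay almost entirely at other places. Of the 1326 regions without IAA 6 were kept, or 0.452% (0.207% to 0.984%), and seen from the other side 6 of the 3022 regions with IAA touched the list without IAA, or 0.199%. The kept share was 0.126% for CTCF, 0.182% for MBD3 and 0.222% for TET1, whose lists became shorter with IAA. A short list leaves little to be kept, so these shares do not rank the antibodies. For CTCF 54 regions were kept while the list with IAA held 63. For MBD3 these counts were 12 and 50, for TET1 36 and 325, and for TET2 6 and 3022. As a share of the list without IAA the kept regions were few for all 4 antibodies. No difference between antibodies was tested. Only for TET2 was the list with IAA the longer one. Allowing a gap of up to 1 kb between regions raised the TET2 share to 1.36%, and a gap of up to 10 kb raised it to 3.92%.

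The 6 kept regions were weak by fold in the list without IAA. All 6 stood below the median fold enrichment of that list, 4.61, and ranged from 1.42 to 3.09, while 4 of the 6 were in the highest of 5 equal classes by −log10 q. Fold enrichment and q are the values of the authors' peak caller. They are used here to rank or filter regions within a list, and their sizes are not compared between lists. The closest match lay at 236260429 to 236260637 on chromosome 1. It was 209 bp wide without IAA and 150 bp with IAA, all 150 bp in common, with summits 1 bp apart. By fold it ranked 1215 in the list without IAA and 2927 in the list with IAA. No other antibody was called there in either condition.

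The widest kept region began near the start of chromosome 5, at 10170 to 11687. It spanned 1518 bp and 6 summits without IAA, and 1617 bp and 3 summits with IAA, with a fold rank of 1250 of 1326 and 283 of 3022 in the respective lists. CTCF, MBD3 and TET1 had all been called there without IAA, and none of them was called there with IAA. At 567290 to 567440 on chromosome 1 the summits were 5 bp apart, and TET1 had been called there without IAA. The region at 92316229 to 92316686 on chromosome 2, next to the centromere, was the single kept region at which MBD3 and TET1 were called in both conditions, and its summits were 458 bp apart. On chromosome 17 the kept region at 17109783 to 17109928 had the smallest overlap, 93 bp, and no other antibody. The sixth lay on the mitochondrial genome at 10516 to 10744, with 104 bp in common. Whether the kept regions reflect TET2 binding or the placement of reads was not tested.

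Just outside the limit, the nearest regions with IAA that shared no base with the list without IAA lay 50 and 105 bp away, both on the mitochondrial genome, and 266 bp away at 56826068 to 56826215 on chromosome 19. The region on chromosome 19 was 148 bp wide, and its neighbour without IAA was 288 bp wide. CTCF had been called at the former without IAA.

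The list with IAA held both more narrow and more wide regions. Its median width was 179 bp (176 to 183) against 191 bp (187 to 196) without IAA, yet its mean was higher, at 247.6 bp against 221.7 bp, since the upper end was longer. The 75th and 90th percentiles were 276 and 441 bp with IAA. Without IAA they were 243 and 317.5 bp. The narrowest region of each list measured 134 bp with IAA and 144 bp without. The part of this lower limit in the count of narrow regions was not tested. Regions up to 150 bp made up 24.95% (23.4% to 26.5%) of the list with IAA and 9.20% (7.76% to 10.9%) of the list without. At the other end, 639 regions with IAA, or 21.1% (19.7% to 22.6%), were at least 300 bp wide, against 164, or 12.4% (10.7% to 14.2%). At 500 bp or more there were 213 against 22, shares of 7.05% (6.19% to 8.02%) and 1.66% (1.10% to 2.50%). The covered length was 748100 bp with IAA and 293961 bp without, 2.54 times as much.

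**Figure D1:**
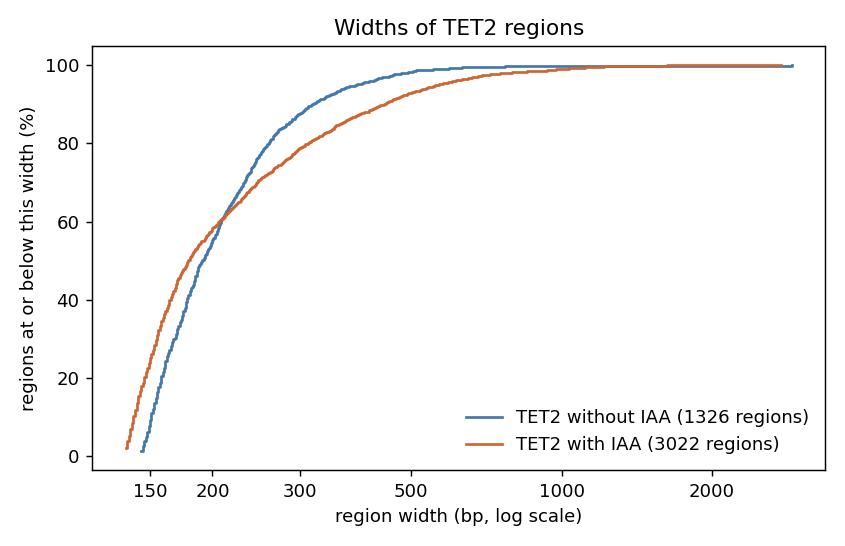
Cumulative share of TET2 regions (vertical axis, %) at or below each width (horizontal axis, bp, log scale), for the 1326 regions without IAA and the 3022 with IAA. The curves cross: the list with IAA has the lower median, 179 against 191 bp, and the higher 90th percentile, 441 against 317.5 bp. The narrowest region measures 134 bp with IAA and 144 bp without.

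The direction of the median depended on which regions were compared. Among the 1326 regions with IAA of highest −log10 q, as many as the list without IAA holds, the median was 230 bp (218 to 243), above the 191 bp of that list. At −log10 q of at least 5 the medians were 263.5 bp with IAA and 208 bp without, and at a fold of at least 5 both were 200 bp. With depth and control unknown, the same threshold need not be equally strict in both lists. Of those 1326 regions 36.6% (34.0% to 39.2%) were at least 300 bp wide. Within each list width went with −log10 q, so a selection by −log10 q from the list with IAA alone raises its widths by construction. With each list split into 5 equal classes by −log10 q, the median width of the lowest and the highest class was 162 and 278 bp with IAA, and 184 and 228 bp without.

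Wide regions with IAA often held several summits. More than 1 summit was called in 242 regions, or 8.01% (7.09% to 9.03%), against 45 regions, or 3.39% (2.55% to 4.51%), without IAA. Over 500 bp this share was 65.3% (58.6% to 71.3%) with IAA and 45.5% (26.9% to 65.3%) without, where only 22 regions are that wide. The widest region on chromosomes 1 to 22 and X lay at 152654872 to 152657620 on the X chromosome. It spanned 2749 bp with 8 summits at a fold of 6.23, and the nearest region without IAA was 18802167 bp away. It was followed by 7628192 to 7629817 on chromosome 1, 1626 bp wide with 6 summits, and by the kept region at the start of chromosome 5. Without IAA the widest on these chromosomes were that same region, then 236877009 to 236878325 on chromosome 1, 1317 bp wide with CTCF, MBD3 and TET1, and 20960306 to 20961119 on chromosome 1, 814 bp wide with no other antibody.

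The 3 regions of highest fold called in 1 condition only were 434 to 492 bp wide without IAA and 178 to 1000 bp wide with IAA. Of the 3 without IAA, chromosome 2 carried those starting at 174219127 (492 bp) and 44588911 (434 bp), and chromosome 1 the one starting at 228674573 (492 bp). Each had 1 summit and stood alone, the nearest neighbour being at least 714010 bp away. Of the 3 with IAA, the region starting at 131962095 on chromosome 12 was 178 bp wide with 1 summit. On chromosome 4 the region starting at 186748197 was 1000 bp wide with 2 summits. These 2 also had no neighbour within 10 kb, the nearest being 61636 bp away on chromosome 12 and 301027 bp away on chromosome 4. The third, starting at 33887422 on chromosome 16, was 373 bp wide, belonged to a cluster of 3 and was called with TET1 as well.

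TET2 regions with IAA more often had close neighbours. Of the 3022 regions, 860 had another region of the same list within 10 kb, or 28.5% (26.9% to 30.1%), against 162 of 1326 without IAA, or 12.2% (10.6% to 14.1%). Within 1 kb the shares were 18.1% (16.7% to 19.5%) with IAA and 5.73% (4.60% to 7.12%) without, and within 100 kb they were 54.1% and 28.9%. A longer list has closer neighbours for that reason alone, and the part of list length in these differences was not tested. Among the 1326 regions with IAA of highest −log10 q, all at 3.47 or more, the shares were 22.02% (19.9% to 24.3%) within 1 kb, 33.6% (31.1% to 36.2%) within 10 kb and 51.0% (48.3% to 53.7%) within 100 kb. That selection equalises the number of regions but takes those of high −log10 q, which had more neighbours in both lists, so it does not remove the effect of length. The median distance to the nearest neighbour was 76918 bp with IAA, 89975 bp among those 1326 and 327804.5 bp without IAA.

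Clustering with IAA was greater among wider regions and among those of higher −log10 q. The share with a neighbour within 10 kb was 18.6% (15.9% to 21.5%) up to 150 bp, 25.7% above that and up to 200 bp, 32.3% up to 300 bp, 40.8% (36.2% to 45.5%) up to 500 bp and 40.4% (34.0% to 47.1%) over 500 bp. Without IAA it stayed between 11.0% and 12.3% up to 300 bp, was 17.1% (11.8% to 24.2%) between 300 and 500 bp, and was 31.8% (16.4% to 52.7%) for the 22 regions over 500 bp. From the lowest to the highest of the 5 classes by −log10 q the share with IAA went from 16.7% (13.9% to 19.9%) to 57.0% (53.1% to 60.9%). Without IAA it went from 7.89% to 22.3% (17.7% to 27.7%).

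**Figure D2:**
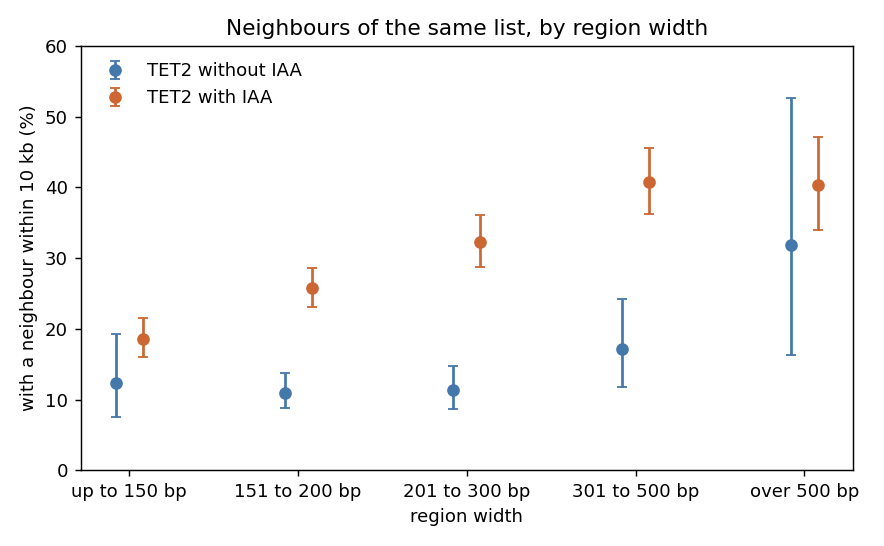
Share of TET2 regions with another region of the same list within 10 kb (vertical axis, %), by width of the region (horizontal axis, 5 classes), with Wilson 95% intervals over regions. The share with IAA is 18.6% in the narrowest class and 40.4% in the widest, and in the 3 classes between 150 and 500 bp its intervals lie above those of the list without IAA.

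Chains of regions with gaps of at most 10 kb were counted as clusters. The 3022 regions with IAA formed 276 clusters of 2 or more and 2162 lone regions, and the 1326 without IAA formed 62 clusters and 1164 lone regions. The largest clusters differed most. With IAA 8 clusters held 10 or more regions, 210 regions in all or 6.95% (6.10% to 7.91%) of the list, while without IAA the single cluster of that size was the mitochondrial genome, with 16 regions. Longer lists form larger clusters for that reason alone, and cluster sizes were not counted at equal list lengths.

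**Figure D3:**
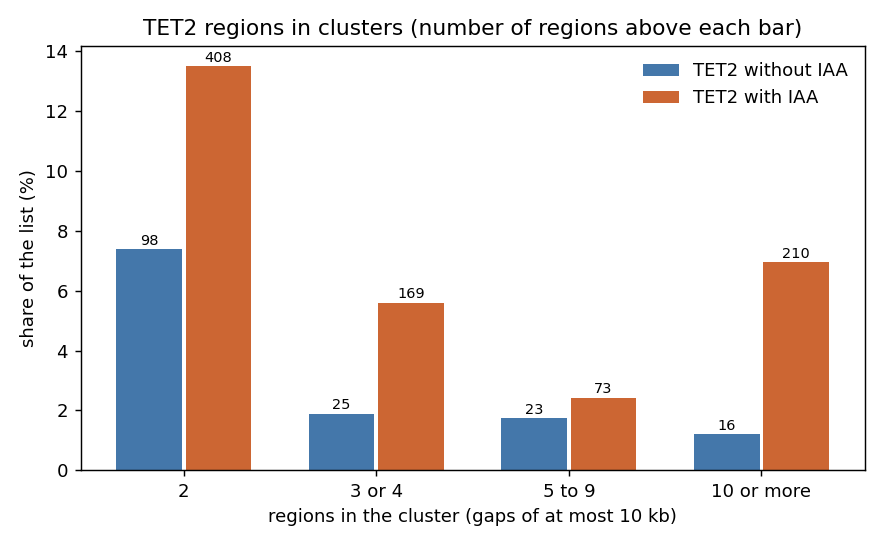
Share of each TET2 list (vertical axis, %) that lies in clusters of 2, 3 or 4, 5 to 9, and 10 or more regions (horizontal axis), with the number of regions above each bar. In the class of 10 or more, 210 regions with IAA stand against 16 without.

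The 3 clusters with most regions with IAA lay beside centromeres or, on chromosome 16, at the edge of the heterochromatin next to one. Tandem satellite repeats are common in such places and reads are hard to place; the part of read placement in these clusters was not tested. The first, at 46385936 to 46435550 on chromosome 16, held 48 regions in 49615 bp. They covered 43.1% of this stretch, had a median width of 367.5 bp and were between 1.83- and 7.17-fold enriched. TET1 was called at 18 of the 48 with IAA, MBD3 at 2 and CTCF at 2. No region of any of the 4 antibodies lay in this stretch without IAA, and the nearest TET2 region of that list was 6983269 bp away. The second, at 42356108 to 42396969 on chromosome 10, held 35 regions, 8 of them called with TET1, and their median width was 236 bp. The nearest TET2 region without IAA was 1585 bp away. The third, at 49093997 to 49157006 on chromosome 4, held 31 regions, 1 of them called with TET1, and their median width was 190 bp. No TET2 region without IAA lay inside any of the 8 clusters of 10 or more. None of them spanned more than 63010 bp, while the median distance between neighbours without IAA was 327804.5 bp. Those on the unplaced contigs chrUn_gl000220 and chrUn_gl000225 could hold none, since the list without IAA has no region there. The number that unrelated lists would give was not computed, so this is no measure of avoidance.

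Without IAA 5 clusters held at least 5 regions, and 4 of them lay mostly or wholly with the other antibodies. Over the whole list without IAA the share called with another antibody in the same condition was already 62.1%. No difference of the clusters from that share was tested. The 16 regions of the mitochondrial genome were all called with another antibody without IAA. The cluster at 51579507 to 51590632 on chromosome 11 held 7 regions, each with another antibody, and 7 MBD3, 6 TET1 and 3 CTCF regions of cells without IAA lay within it. The cluster at 92305599 to 92325260 on chromosome 2 held 6 regions, again each with another antibody, and 1 TET2 region with IAA. Both are beside centromeres. Of the remaining clusters, each of 5 regions, the one at 42529309 to 42543876 on chromosome 10 had 4 regions called with another antibody without IAA. The one at 189424823 to 189429352 on chromosome 4 had none, in either condition.

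In windows of 1 Mb the list with IAA was spread widely and had a few very dense places. It occupied 1190 windows, 638 of them with 1 region, and the list without IAA occupied 819, 517 of them with 1 region. Windows with at least 10 regions numbered 40 with IAA and held 700 regions, or 23.2% of the list, against 2 windows and 26 regions, or 1.96%. A longer list reaches a fixed count per window more easily, and the part of list length in these counts was not tested. The 3 fullest windows with IAA began at 46000001 on chromosome 16, 49000001 on chromosome 4 and 42000001 on chromosome 10, with 51, 48 and 40 regions. The list without IAA had 0, 0 and 8 regions there. Both lists occupied 398 windows, which is 33.4% of the windows with IAA and 48.6% of those without.

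The shares of the chromosomes differed between the TET2 lists. All 23 chromosomes from 1 to 22 and X held more regions with IAA, from 1.09 times as many on chromosome 15, with 47 against 43, to 7.31 times as many on chromosome 20, with 95 against 13. As a share of the list 12 chromosomes were higher and 11 lower with IAA. The 95% interval of the difference lay above 0 for 6 of them, below 0 for 6 and spanned 0 for 11. These intervals take regions as independent and are not adjusted for 23 chromosomes. The counts describe the lists and are no test between conditions.

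The 3 chromosomes whose share was most above that without IAA were 16, 2 and 20. Chromosome 16 held 185 regions with IAA, or 6.12% (5.32% to 7.03%), and 26 without, or 1.96% (1.34% to 2.86%), a difference of 4.16 percentage points (2.96 to 5.26). Chromosome 2 held 256 against 74 regions, or 8.47% against 5.58%, a difference of 2.89 points (1.23 to 4.42). For chromosome 20 the shares were 3.14% and 0.980%, with a difference of 2.16 points (1.27 to 2.96). The 3 whose share was most below it were 1, 6 and 13. Chromosome 1 held 223 regions with IAA, or 7.38%, and 147 without, or 11.1% (9.51% to 12.9%), a difference of -3.71 points (-5.71 to -1.84). For chromosomes 6 and 13 the differences were -3.09 points (-4.74 to -1.61) and -1.99 points (-3.35 to -0.80).

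**Figure D4:**
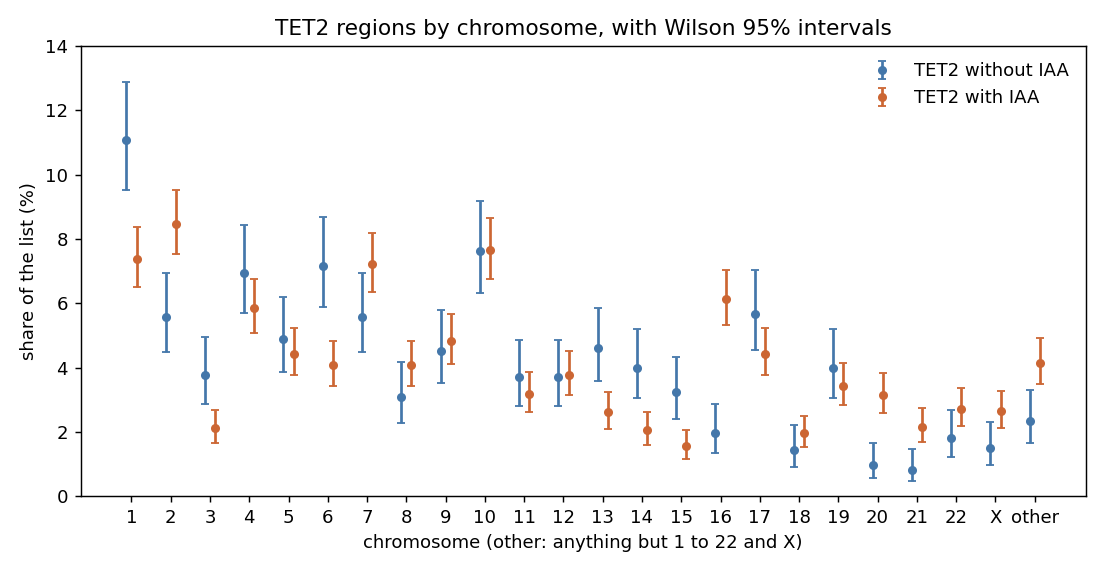
Share of each TET2 list (vertical axis, %) on each chromosome (horizontal axis; the last position pools everything outside chromosomes 1 to 22 and X), with Wilson 95% intervals over regions. Chromosome 16 goes from 1.96% without IAA to 6.12% with IAA, and chromosome 1 from 11.1% to 7.38%.

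Counting each cluster once lowered the excess on chromosome 16 and did not lower that on chromosome 20. The cluster of 48 regions is 48 of the 185 on chromosome 16. With each cluster counted once, chromosome 16 had 4.80% of clusters with IAA against 2.12% without, a difference of 2.68 points in place of 4.16. The difference for chromosome 20 was 2.38 points in place of 2.16, where no cluster exceeded 3 regions. For chromosome 2 it was 2.04 in place of 2.89. Chromosome 1 then had the difference of greatest size, at -3.75 points. The sign was the same for clusters and for regions on 21 of the 23 chromosomes. Per megabase up to the highest listed position, and counting every region, chromosome 16 had the highest density with IAA, 2.05 regions against 0.288 without. Chromosome 17 had the highest density of regions without IAA, 0.924, against 1.65 with IAA. With each cluster counted once, chromosome 17 had more with IAA than chromosome 16, 125 against 117. Its length was shorter, 81177134 against 90282105 bp, so chromosome 16 was then not the densest.

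Few TET2 regions with IAA lay close to one without IAA. The median distance from a region with IAA to the nearest one without was 849872 bp (800395 to 908538), counting the 119 regions on contigs or chromosomes with no region without IAA as farther than all others. On chromosomes 1 to 22 and X alone it was 800214 bp. The distance that unrelated lists of these lengths would have was not computed, so the median is a description of spacing and no measure of avoidance. Of the 3022 regions 14 lay within 1 kb of the list without IAA, 46 within 10 kb, or 1.52% (1.14% to 2.02%), 306 within 100 kb, or 10.1% (9.10% to 11.3%), and 1633 within 1 Mb, or 54.0% (52.3% to 55.8%). For the 1326 regions of highest −log10 q the share within 100 kb was 11.2% (9.58% to 12.97%), and among regions without IAA the share with another of their own list within 100 kb was 28.9% (26.5% to 31.4%).

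**Figure D5:**
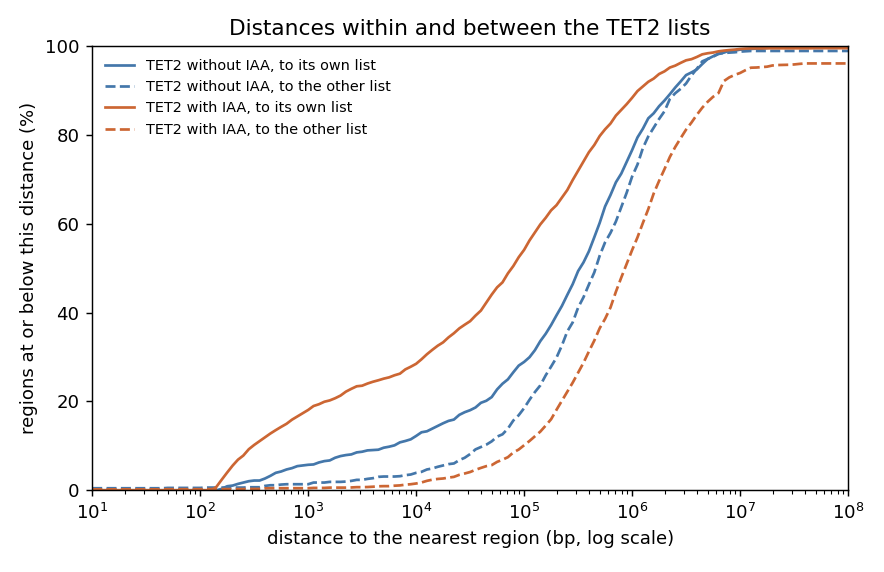
Cumulative share of TET2 regions (vertical axis, %) at or below each distance to the nearest region (horizontal axis, bp, log scale), to the same list (solid lines) and to the other list (dashed lines). Regions with IAA are nearest to each other, with a median of 76918 bp, and farthest from the other list, with a median of 849872 bp. A longer list gives shorter distances for that reason alone, so this order is no measure of avoidance.

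Position along the chromosome differed between the lists. Of the 2897 regions with IAA on chromosomes 1 to 22 and X, 976 lay within 5 Mb of a chromosome end, or 33.7% (32.0% to 35.4%), against 112 of 1295 without IAA, or 8.65% (7.24% to 10.3%). Distances also differed between kinds of region. Regions in clusters of at least 5 with IAA lay farther from the list without IAA, at a median of 1449538 bp (1293959 to 2528174) with contigs counted as above, than lone regions, at 829957 bp (769767 to 895421). Those 283 clustered regions come from only 20 clusters, and members of 1 cluster have nearly the same distance. Their interval is therefore far too narrow, and the contrast with lone regions rests on few places. The upper quartile of the 283 has no finite value, since so many lie where the list without IAA has no region. For lone regions it was 2020622 bp. The part of these places in the higher median was not tested. The 976 regions with IAA near ends had 10.1% (8.40% to 12.2%) within 100 kb of the list without IAA, and the others had 10.5% (9.17% to 11.9%), with intervals that overlap. Those near ends were wider, with 28.0% (25.3% to 30.9%) against 17.9% (16.3% to 19.7%) at 300 bp or more, and closer together, with 76.3% (73.6% to 78.9%) against 40.9% (38.7% to 43.1%) having a neighbour within 100 kb. Seen from the list without IAA, the median distance to a region with IAA was 458846 bp (418350 to 501080). For its 112 regions near chromosome ends it was 87554.5 bp (65600 to 132429), against 511145 bp (463782 to 570451) for the others, and the list with IAA that it is measured to holds a greater share of its regions there.

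The 2 lists also differed in what was called beside TET2. Of the 1326 regions without IAA, 823 were called with CTCF, MBD3 or TET1 in the same condition, or 62.1% (59.4% to 64.6%). Of the 3022 with IAA, 126 were called with 1 of these with IAA, or 4.17% (3.51% to 4.94%), nearly all with TET1, at 123. The lists of the other antibodies with IAA are short, at 63, 50 and 325 regions, so few TET2 regions could have touched them. At the places where the others had been called without IAA lay 42 of the 3022, or 1.39% (1.03% to 1.87%). Distances followed: the median distance to the nearest CTCF region of cells without IAA was 3058 bp (1942 to 4475) for TET2 regions without IAA and 20890 bp (19681 to 22119) for those with IAA.

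The 126 TET2 regions with IAA that another antibody shared were wider and more clustered than the rest. A wider region is more likely to share a base with another list, so choosing by overlap favours wide regions in either condition. Of the 123 shared with TET1, 18 lay in the largest cluster on chromosome 16 and 8 in the one on chromosome 10. The 126 had a median width of 312.5 bp (284 to 373) against 176 bp (173 to 180) for the other 2896, and 67.5% (58.9% to 75.02%) against 26.8% (25.2% to 28.4%) had a TET2 neighbour within 10 kb. Leaving the 126 out, the share with such a neighbour among those that remained was 25.9%, against 11.2% without IAA by the same filter. Without IAA the 823 regions called with another antibody were wider as well, with a median of 199 bp (193 to 205) against 180 bp (177 to 185) for the other 503. The median distance to the list with IAA was 454997 bp (403214 to 513758) for the 823 and 463292 bp (389359 to 550331) for the 503.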

How the data were processed

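ChIP-seq peak lists of HEK293T cells were used as deposited, 2 TET2 lists in the main and the 6 others for comparison. The submitters' processing notes name MACS2 2.1.2, Bowtie2 2.3.4, bedtools 2.25.0, FastQC 0.11.7, SAMtools 1.9 and the build hg19, with no step given for each. No source used here names the control of a list. The deposited columns used hold fold enrichment, a ratio, and −log10 of q, with a score that follows it and the summit offset. Each list is the authors' pool of the 3 samples in its group. The highest q in any deposited list was 0.05.

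Rows with at least 1 bp in common were joined, keeping the highest fold and −log10 q. Distance is 0 for a common base and 1 for regions that touch end to end. Clusters are chains with gaps of at most 10 kb. Chromosome ends were taken from the highest position in any list. Samples were grouped by title. Python 3.11.15, pandas 2.3.3, NumPy 2.4.6, SciPy 1.17.1 and matplotlib 3.10.9 were used, and the functions were tested on simulated data of 2000 sites. Alternatives changed the thresholds, the joining, the overlap, the chromosomes and the list lengths. No test between conditions was made. Named regions were every kept region, the 3 widest and the 3 of highest fold found in 1 condition per list, the 3 largest clusters per list, the 3 nearest regions without a common base, the 3 fullest windows of 1 Mb, and the 3 chromosomes with the highest and lowest differences in share. The regions, lists and rules were chosen with earlier results of these data known. Coordinates are hg19, counted from 1. No gene names or sequences are given, since the hg19 sequence and annotation were not used here.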

Additional observations from a re-analysis of the deposited data

How the results depend on the processing

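The kept share, 0.452% as reported, was 1.08% at −log10 q of at least 5, 1.887% at 10 and 0% at a fold of 5 or more. The share was 1.357% with gaps up to 1 kb and 3.922% up to 10 kb. The median width at −log10 q of 5, of 10 and at a fold of 5 was 263.5, 286 and 200 bp with IAA, and 208, 247 and 200 bp without. With IAA it was also 193 bp for single rows, 230 bp at equal list lengths and 172 bp away from chromosome ends. The share with IAA near another region was 38.82%, 57.75% and 17.77% at those 3 thresholds, 39.06% for single rows, where rows of 1 region count as neighbours, and 33.56% at equal lengths. It was 26.37% on chromosomes 1 to 22 and X, 25.86% without regions of other antibodies, 23.01% away from ends, 18.07% within 1 kb and 54.1% within 100 kb. Without IAA that share was 14.69%, 28.3% and 4.207% at the 3 thresholds, 17.63% for single rows, 10.14% away from ends, 5.732% within 1 kb and 28.88% within 100 kb. It stayed below the share with IAA under each of these settings. The median distance with IAA to the list without IAA was 2428077.5, 18629093 and 2864723 bp at the thresholds, where both lists are shorter, 800214 bp on chromosomes 1 to 22 and X, and 931533 bp at equal lengths. The share on chromosome 16 was 9.412%, 15.81% and 5.139% at the thresholds, 7.617% at equal lengths, 4.819% without clusters of 5 or more and 4.799% with clusters counted once. Under the fold threshold and these last 2 settings chromosome 1 differed most. The settings on chromosome ends and clusters were chosen after seeing the data. Where no reason is given, the cause was not tested. No paired analysis was possible because the lists pool the replicates, and for the same reason no replicate could be left out. Unknown read depth limits every count.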

Other observations

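Outside chromosomes 1 to 22 and X the 2 TET2 lists had little in common. The list with IAA held 31 regions on the unplaced contig chrUn_gl000220, which carries ribosomal DNA repeats, 25 on chrUn_gl000225 and 13 on chrUn_gl000216, and the list without IAA held none on these 3. The list without IAA held 16 regions on the mitochondrial genome and 10 on chr9_gl000199_random, against 6 and none with IAA. The largest cluster on chrUn_gl000220 held 26 regions in 30752 bp, with a fold between 1.72 and 4.14.

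The share of TET2 regions with IAA within 5 Mb of a chromosome end varied between chromosomes. It was 69.2% on chromosome 21, with 45 of 65 regions, and 54.5% on chromosome 8, with 67 of 123. It was 15.6% on chromosome 3, with 10 of 64. Short chromosomes have more of their length near an end, and these shares are not adjusted for that.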
